A study of Danio rerio with 8 samples.

Results

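The cadherins and protocadherins are the genes described here, compared between the cornea and the epidermis of the skin of adult zebrafish. They were taken by gene symbol, as every gene whose symbol began with cdh and a digit, cdhr, pcdh, fat1 to fat4 or celsr, with cdh5 left out as a gene of vascular endothelium. This gave 37 of the 14462 named genes on the array, read by 54 probes: 23 genes had 1 probe, 11 had 2 and 3 had 3. The 37 fell into 9 classical and related cadherins, 5 divergent cadherins, 10 protocadherins of the gene clusters, 10 protocadherins outside the clusters and 3 genes of the Fat and Celsr families.

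The samples were total RNA of the cornea and of the epidermis of adult fish of the AB2O2 wild type strain, hybridised together on 2-colour arrays. There were 4 biological repeats, each on 2 arrays with the dyes exchanged, so that 8 arrays on 2 slides were compared. For each repeat, the cornea was dissected free of the sclera, lens, iris, muscle and retina of 30 eye globes, and epidermis was scraped off the body together with the scales that carry it. Each value is a log2 ratio of cornea over epidermis, without a level in either tissue.

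Cadherins are calcium-dependent adhesion proteins of the cell surface. The classical cadherins bind their like on the neighbouring cell and are tied to actin through β-catenin and α-catenin inside the cell, which forms the adherens junction of epithelia. Protocadherins lack the catenin-binding tail; those of the gene clusters are known from neurons, where combinations of them mark the surface of single cells. Fat and Celsr proteins are giant cadherins of planar cell polarity. In mammals the corneal epithelium carries E-cadherin and the corneal endothelium carries N-cadherin.

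Gene names depend on how the array grid was arranged, which was worked out from the values themselves: with this arrangement, the first 2 probes of a gene correlated at r = 0.361 across 5098 genes, which are not independent replicates, and at r = 0.0191 when feature numbers were matched directly. The direction of the ratio was not stated with the values and is taken as cornea over epidermis because the labels name the cornea first. The eye regulators pax6b (4.09 ± 0.25, SD, n = 4), pax6a, six3a and foxc1a lay between 3.26 and 4.09 on the log2 scale, while of 47 hox genes, which pattern the trunk, 1 was called higher and 22 lower. Arrays of opposite dye orientation of a repeat correlated at r between 0.390 and 0.515, repeats at r between 0.544 and 0.703, and array medians lay between −0.02 and 0.01. Listed markers of cornea and anterior segment, some of them named by the study from these arrays, were called higher for 8 of 9 genes (median 3.26). Listed keratinocyte markers were also called higher, for 10 of 12 genes (median 1.49, and between 1.38 and 1.58 in single repeats), krt5 at 1.18 ± 0.26 and epcam at 2.08 ± 0.50 among them. None of the 12 was called lower in cornea, so the epidermis samples were not set apart by the markers of their labelled cell type. The study describes the corneal epithelium as continuous with the epidermis and counts epcam among its cornea genes. Whether this list can separate the tissues was not tested. In whole tissue, fewer cells of a type and less RNA per cell cannot be told apart, and this holds for every ratio below.

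A gene was called at an adjusted p under 0.05 in a limma fit over all 14462 genes, with the 2 arrays of a repeat averaged first and n = 4. Of the 37 genes, 7 were called higher in cornea (18.9%, against 22.9% of all genes) and 2 lower (5.41%, against 13.8% of all genes), and 28 were not called. Without adjustment, 13 of the 37 genes had a p under 0.05, as did 6649 of all 14462 genes. The median log2 ratio of the 37 was −0.07, that of all genes 0.03, and the median size of the log2 ratio was 0.32 for the 37 and 0.37 for all genes. A difference over 2-fold was seen for 3 of the 37 (8.11%, against 15.7% of all genes). The median SD between repeats was 0.39 for the 37 and 0.31 for all genes. Of the 28 that were not called, 21 had a 95% interval of the log2 ratio that lay within 1 of 0 on both sides. A 2-fold difference in the measured ratio lay outside these intervals, which cover the spread between repeats and not how a probe responds. The plot of the 37 genes by repeat shows these values.

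**Figure D1:**
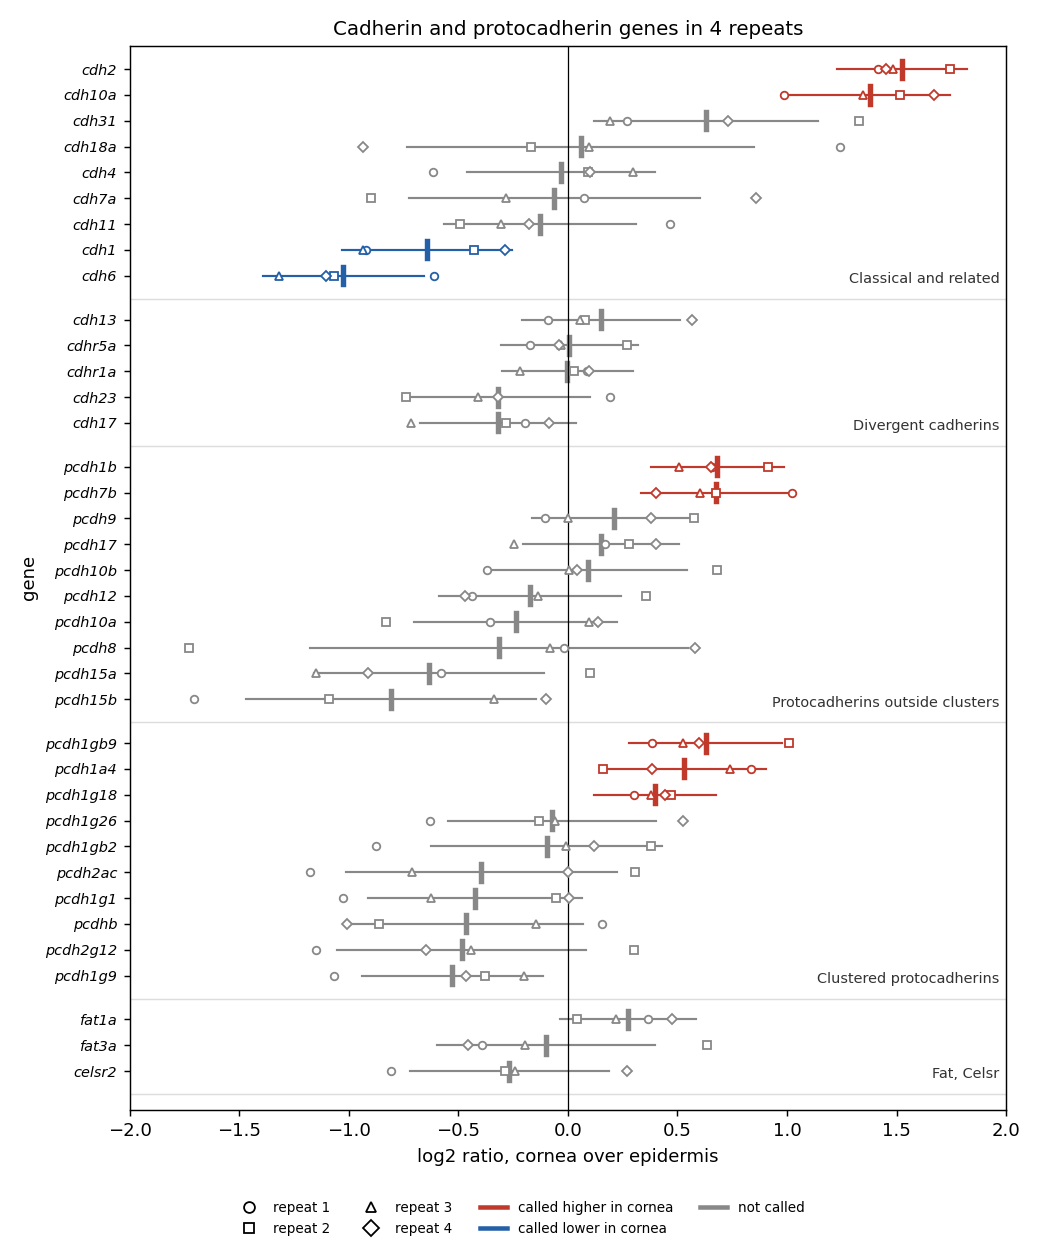
Log2 ratio of cornea over epidermis (x axis) for each of the 37 genes (y axis), grouped by subfamily. Symbols are the 4 repeats, thick bars the means and thin lines the 95% intervals of the limma fit. cdh2 and cdh10a lie highest, at 1.52 and 1.38, and cdh6 lowest, at −1.03, each with all 4 repeats on the same side of 0, while most protocadherins have repeats on both sides.

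The classical cadherins held the 2 highest and the lowest of all 37 ratios. cdh2 and cdh10a were higher in cornea, cdh6 and cdh1 were lower, and the other 5 of the 9 were not called. These calls were 22.2% in each direction, against 22.9% higher and 13.8% lower of all genes. All 4 called genes had the same sign on all 8 arrays. A call itself favours such agreement, so this does not set the 4 genes apart. Among all 37 members, called or not, 7 had the same sign on all 8 arrays, against 34.8% of all genes.

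cdh2 encodes N-cadherin, the classical cadherin of neural tissue, muscle and mesenchyme. Its log2 ratios were 1.42, 1.75, 1.48 and 1.45 in repeats 1, 2, 3 and 4. All 8 arrays lay between 1.33 and 1.86, so the repeats were close together and far from 0. The mean was 1.52 ± 0.15 (SD, n = 4), a 2.88-fold higher level in cornea with an adjusted p of 0.000298. The gene mean hides a split between its probes. A pair of probes annotated with the same transcript record read 2.45 ± 0.17 and 2.36 ± 0.17 and were both called higher, while the third, annotated with another record of the gene, read −0.24 ± 0.19 and was not called. Without the third probe, an alternative chosen after its value had been seen, the ratio of cdh2 was 2.405. Of 19 listed skeletal muscle genes, 6 were called higher in cornea, atp2a1 the highest at 3.04 ± 0.64, and 1 lower. These were 31.6% and 5.26% of the list, against 22.9% and 13.8% of all genes. The list median lay between 0.05 and 0.30 in single repeats. Over the gene means it was 0.001, with 10 genes above 0 and 9 below. Of 11 listed genes of smooth muscle and fibroblasts, 4 were called higher and 4 lower (36.4% each). Those higher included acta2 at 4.72 ± 0.38 and myh11a at 1.56 ± 0.36. The list median lay between 0.07 and 0.46 in single repeats. The part of muscle and fibroblasts in the ratio of cdh2 was not tested.

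cdh10a encodes a type II classical cadherin known mainly from the nervous system. Its log2 ratios were 0.99, 1.52, 1.35 and 1.67 in repeats 1, 2, 3 and 4, from a single probe. Repeat 1 was the lowest, and the arrays spanned 0.95 to 2.12. The mean of 1.38 ± 0.29 (SD, n = 4) was a 2.60-fold higher level in cornea, with an adjusted p of 0.000854. cdh2 and cdh10a were the only members that passed a stricter threshold of an adjusted p under 0.001 with a change over 2-fold in the higher direction, which 6.64% of all genes passed. None passed it in the lower direction, which 2.18% of all genes passed.

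cdh6, a type II cadherin named for its expression in the mammalian kidney, had the largest fall. Its log2 ratios were −0.61, −1.07, −1.32 and −1.11 in repeats 1, 2, 3 and 4, and the arrays lay between −1.47 and −0.58. Repeat 1 was nearest to 0, but no array crossed it. The mean was −1.03 ± 0.30 (SD, n = 4), a 2.04-fold lower level in cornea, with an adjusted p of 0.00278. Both of its probes lay below 0, at −1.48 ± 0.31 (called lower) and −0.57 ± 0.31 (not called, adjusted p 0.0594). Among listed markers of scale osteoblasts and bone, 3 of 10 were called lower and 1 higher. These were 30% and 10% of the list, against 13.8% and 22.9% of all genes. The list median lay between −0.34 and −0.11 in single repeats. The part of scale cells in the ratio of cdh6 was not tested.

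cdh1 encodes E-cadherin, the cadherin of epithelial adherens junctions. Its single probe gave log2 ratios of −0.92, −0.43, −0.94 and −0.29 in repeats 1, 2, 3 and 4. Repeats 1 and 3 were low and repeats 2 and 4 nearer to 0, with the arrays between −1.14 and −0.07. The mean was −0.64 ± 0.34 (SD, n = 4), a 1.56-fold lower level in cornea with an adjusted p of 0.0219. Leaving out repeat 1 gave −0.55 with an adjusted p of 0.0696, and leaving out repeat 3 gave −0.54 with an adjusted p of 0.0908, so that the call did not hold without either. The keratinocyte markers given above were higher in cornea in the same arrays; whether cell makeup has a part in the ratio of cdh1 was not tested.

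In the gene order of the RefSeq table, cdh6 and cdh10a are direct neighbours, with 0 protein-coding genes between them. Their ratios lay on opposite sides of 0 on every array. cdh18a, a further type II cadherin, is separated from cdh10a by 1 protein-coding gene, and its ratio of 0.06 ± 0.90 (SD, n = 4) came from repeats between −0.93 and 1.24. cdh7a lies 21 protein-coding genes from cdh6 and had a ratio of −0.06 ± 0.73, with repeats between −0.90 and 0.86. For cdh18a and cdh7a the spread between repeats was far larger than the mean, and their 95% intervals reached from −0.73 to 0.85 and from −0.73 to 0.60.

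The remaining classical and related genes were not called. cdh31 had the highest ratio among all uncalled members, 0.63 ± 0.52, with an adjusted p of 0.0597. Its 4 repeats lay above 0, between 0.19 and 1.33, but 6 of its 8 arrays did. cdh4, the retinal cadherin, averaged −0.03 ± 0.40, with 95% limits of −0.46 and 0.40. cdh11, a cadherin of mesenchyme and bone in mammals, averaged −0.13 ± 0.41, with limits of −0.56 and 0.31. The intervals for cdh4 and cdh11 lay within 1 of 0 on both sides, and that for cdh31 did not. They hold for the measured ratio, not for how well a probe reads its gene.

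None of the 5 divergent cadherins was called, and none had an unadjusted p under 0.05. cdhr1a, a cadherin of the photoreceptor outer segment base, had ratios between −0.22 and 0.10 in the 4 repeats, with a mean of −0.00 ± 0.15 and 95% limits of −0.30 and 0.29. Its single arrays were wider apart, between −0.69 and 0.86, with both of these values in repeat 1. In the same arrays 3 of 15 listed photoreceptor markers were called higher and 0 lower (20% and 0%, against 22.9% and 13.8% of all genes). Those higher were gnat2 (2.69 ± 0.27), opn1lw1 (1.50 ± 0.36) and rom1b (0.90 ± 0.18), and the other 12 were not called. The part of photoreceptors in the ratios of the members was not tested. The list median lay between −0.00 and 0.63 in single repeats. cdhr5a, related to the brush border cadherin of the mammalian intestine, averaged 0.01 ± 0.19. cdh13, or T-cadherin, which is anchored to the membrane by a lipid instead of a cytoplasmic tail, averaged 0.15 ± 0.29. cdh17, a cadherin of intestine in mammals and of kidney in zebrafish, averaged −0.32 ± 0.28, below 0 in all 4 repeats and above 0 on 1 of 8 arrays. cdh23, part of the tip link of hair cells, averaged −0.32 ± 0.39, with repeat 1 at 0.19 and the others between −0.74 and −0.32.

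pcdh15a and pcdh15b, the zebrafish copies of the gene for the tip link partner of Cdh23, were the lowest members that were not called. In zebrafish pcdh15a is known from hair cells and pcdh15b from photoreceptors. pcdh15b gave −1.70, −1.09, −0.34 and −0.10 in repeats 1, 2, 3 and 4, a mean of −0.81 ± 0.73 (SD, n = 4) and an adjusted p of 0.0619. The repeats of slide 1 averaged −1.40 and those of slide 2 −0.22, all below 0. With the slide as a block the adjusted p was 0.0151, and without repeat 4 it was 0.0469 at a ratio of −1.04. Without repeat 1, 2 or 3 pcdh15b was not called, at adjusted p of up to 0.165 and ratios between −0.96 and −0.51. With cornea in Cy5 alone the adjusted p was 0.148, and with cornea in Cy3 alone it was 0.111. One probe of pcdh15b was called lower, at −1.05 ± 0.40, and the other read −0.56 ± 1.23 with repeats between −2.17 and 0.53.

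pcdh15a gave −0.58, 0.10, −1.15 and −0.91 in repeats 1, 2, 3 and 4, a mean of −0.63 ± 0.54 (SD, n = 4) and an adjusted p of 0.0635. Repeat 2 alone lay above 0, and without it the ratio was −0.88, with an adjusted p of 0.0149. Without repeat 1, 3 or 4 the adjusted p was 0.135, 0.202 or 0.194. The slides ran the other way round than for pcdh15b: slide 1 averaged −0.24 and slide 2 −1.03. With the slide as a block the adjusted p was 0.0368. One probe was called lower, at −0.88 ± 0.47, and the other read −0.39 ± 0.89. Of 11 listed hair bundle and brush border partners of these proteins, 2 were called higher and 1 lower. These were 18.2% and 9.09% of the list, against 22.9% and 13.8% of all genes. Those higher were adgrv1 (0.77 ± 0.49) and cib2 (0.49 ± 0.27), and the microvillus protein vil1 was lower (−0.66 ± 0.18). The calls of adgrv1 and cib2 were lost without single repeats: adgrv1 without repeat 1, 2 or 3, at adjusted p up to 0.0730, and cib2 without any of the 4, at adjusted p up to 0.127.

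Of the 10 protocadherins outside the clusters, 2 were called higher in cornea (20%, against 22.9% of all genes). None was called lower (against 13.8% of all genes). Both of the called genes belong to the δ-protocadherins, which have a conserved cytoplasmic tail. So do uncalled members, among them pcdh9, pcdh17 and pcdh10b, so this trait did not set the called genes apart. pcdh1b, a gene outside the clusters in spite of its symbol, had log2 ratios of 0.66, 0.91, 0.51 and 0.65 in repeats 1, 2, 3 and 4 and all 8 arrays above 0. The mean was 0.68 ± 0.17 (SD, n = 4), with an adjusted p of 0.0068. Its 3 probes read 1.096 ± 0.18, 0.65 ± 0.40 and 0.30 ± 0.20, of which only the first was called higher, so they shared the sign but not the size.

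pcdh7b had log2 ratios of 1.02, 0.68, 0.61 and 0.40 in repeats 1, 2, 3 and 4, from 1 probe. All repeats were above 0, while 1 of the 8 arrays was just below it, at −0.03. The mean was 0.68 ± 0.26 (SD, n = 4), with an adjusted p of 0.0116. Leaving out any single repeat kept the calls of pcdh1b and pcdh7b, at adjusted p of up to 0.0325 and 0.0422. On the arrays of a single dye orientation pcdh7b was not called, with an adjusted p of 0.0891 with cornea in Cy5 and 0.0552 with cornea in Cy3.

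The remaining 6 protocadherins outside the clusters lay between −0.31 and 0.21. pcdh8, the paraxial protocadherin of gastrulation, had the widest spread between repeat means of all members: its mean was −0.31 ± 0.99, with repeat 2 at −1.73 and repeat 4 at 0.58. pcdh9, pcdh17 and pcdh10b averaged 0.21 ± 0.32, 0.15 ± 0.28 and 0.09 ± 0.44. pcdh10a averaged −0.24 ± 0.45, with 1 probe at 0.24 ± 0.13 and the other at −0.71 ± 0.93, on opposite sides of 0 and neither called. pcdh12, known from vascular endothelium in mammals, averaged −0.17 ± 0.38, with 95% limits of −0.59 and 0.24. In the same arrays 5 of 8 listed endothelial markers were called lower and 1 higher, pecam1a at −1.72 ± 0.40 the lowest of them. These calls were 62.5% and 12.5% of the list, against 13.8% and 22.9% of all genes. The list median lay between −0.85 and −0.56 in single repeats. The endothelial cadherin cdh5, which is not among the 37, averaged −0.06 ± 0.28 and was not called.

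Among the 10 clustered protocadherins, 3 were called higher (30.0%, against 22.9% of all genes) and none lower (against 13.8% of all genes). Genes of a cluster are closely alike, many joining their own first exon to shared ones, so a probe may read more than the gene it is named for. pcdhb, whose gene ID was not found in the RefSeq table, was placed here by its symbol alone. All 3 called genes were members of cluster 1 by their symbols, as were most of the 10. pcdh1gb9 gave 0.39, 1.01, 0.52 and 0.60 in repeats 1, 2, 3 and 4, with all 8 arrays above 0, a mean of 0.63 ± 0.27 (SD, n = 4) and an adjusted p of 0.0162. Repeat 2 was its highest, and the call was lost without repeat 2, 3 or 4, at adjusted p between 0.0503 and 0.0587 and ratios between 0.50 and 0.66.

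pcdh1a4 gave 0.83, 0.16, 0.74 and 0.38 in repeats 1, 2, 3 and 4, a mean of 0.53 ± 0.31 (SD, n = 4) and an adjusted p of 0.0387. Its repeats were all above 0, but 1 array lay at −0.16. The 3 probes read 0.84 ± 0.24 (called higher), 0.75 ± 0.67 and −0.00 ± 0.26. Without repeat 1, 3 or 4 the adjusted p was 0.107, 0.140 or 0.0858, at ratios of 0.43, 0.46 and 0.58, and with the slide as a block it was 0.0667.

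pcdh1g18 had the smallest SD between repeat means of all 37 genes. It gave 0.30, 0.47, 0.38 and 0.44 in repeats 1, 2, 3 and 4, a mean of 0.40 ± 0.07 (SD, n = 4) and an adjusted p of 0.0367. All 8 arrays lay above 0 but were wider apart, between 0.03 and 0.72, with both of these values in repeat 3. Its probes read 0.56 ± 0.20 (called higher) and 0.23 ± 0.06 (not called). The call was lost without any single repeat, at adjusted p between 0.0511 and 0.123, although the ratio stayed between 0.37 and 0.43. It was also lost with the slide as a block (adjusted p 0.0693) and with the probe of smallest variance alone (0.23, adjusted p 0.139).

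The 7 clustered genes that were not called all had means below 0, between −0.53 and −0.07. Their repeats were spread widely: repeat 1 was the lowest in 6 of the 7, pcdhb being the exception, and reached −1.18 in pcdh2ac, −1.15 in pcdh2g12 and −1.07 in pcdh1g9. The share of all genes with repeat 1 lowest was not counted. Arrays of repeat 1 with cornea in Cy5 and in Cy3 read −0.58 and −1.77 for pcdh2ac. They read −2.03 and −0.27 for pcdh2g12, and −0.54 and −1.60 for pcdh1g9. pcdh1g9 was the nearest to a call, at −0.53 ± 0.38 with an adjusted p of 0.0531 and all repeats below 0. Its dye orientations differed, with −0.12 for cornea in Cy5 (adjusted p 0.801) and −0.94 for cornea in Cy3 (adjusted p 0.127). In repeat 4 these arrays read 1.00 and −1.93. The 2 genes of cluster 2 were pcdh2ac at −0.39 ± 0.67 and pcdh2g12 at −0.49 ± 0.60. Without repeat 2, pcdh2g12 had a ratio of −0.75 and an adjusted p of 0.0336. The dye-swapped arrays of this gene disagreed, with 2.82 and −2.21 in repeat 2 and 0.33 and −1.62 in repeat 4. Of 16 listed markers of neurons and glia, 3 were called higher and 0 lower (18.8% and 0%, against 22.9% and 13.8% of all genes). The list median lay between −0.05 and 0.28 in single repeats and was −0.03 over the gene means.

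The 3 giant cadherins were not called. fat1a, whose mammalian counterpart acts at epithelial cell contacts, had 4 repeats above 0, between 0.04 and 0.47, a mean of 0.27 ± 0.19 and an adjusted p of 0.149. The dye orientations of fat1a differed, with −0.01 for cornea in Cy5 (adjusted p 0.978) and 0.56 for cornea in Cy3 (adjusted p 0.0378). fat3a averaged −0.10 ± 0.50 and celsr2, a receptor of planar cell polarity, −0.27 ± 0.44. Their 95% intervals lay within 1 of 0, that of celsr2 between −0.72 and 0.19.

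Probes of the same gene were compared next, as shown in the plot of single probes. Of the 54 probes, 8 were called higher (14.8%) and 4 lower (7.41%), against 14.0% and 10.4% of all 45220 features. No gene had probes called in both directions. The median gap between the probes of a gene was 0.49 for the members with over 1 probe and 0.59 for all such genes. cdh2 had the widest gap among the members.

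**Figure D2:**
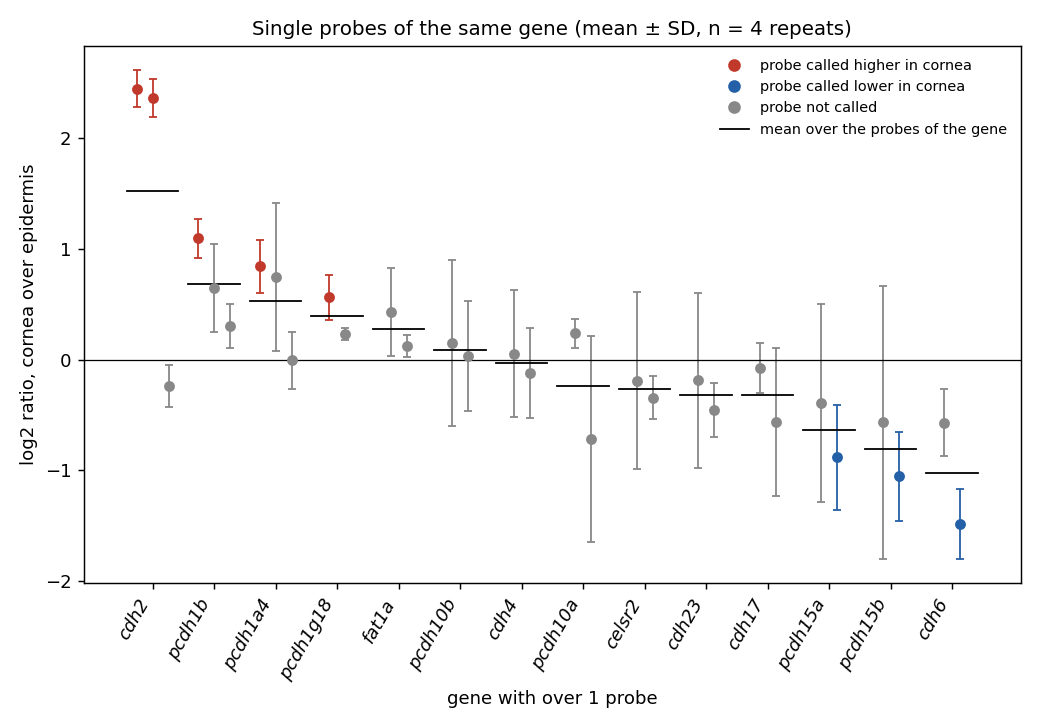
Log2 ratio of cornea over epidermis (y axis) for the single probes of the 14 genes with over 1 probe (x axis). Points are means and bars the SD over 4 repeats, and black lines the gene means. cdh2 has probes at 2.45, 2.36 and −0.24, and in cdh6, pcdh15a and pcdh15b 1 of 2 probes was called lower.

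The dye orientations were compared for each gene, since a probe can favour a dye. For cdh2 the 4 arrays with cornea in Cy5 averaged 1.50 and those with cornea in Cy3 1.55, and for cdh6 −1.09 and −0.96. For cdh10a these means were 1.22 and 1.54, and for cdh1 −0.44 and −0.84, with an adjusted p of 0.125 for cdh1 on the Cy5 arrays alone. pcdh1a4 averaged 0.26 with cornea in Cy5 (adjusted p 0.369) and 0.80 with cornea in Cy3. pcdh1g18 averaged 0.42 with cornea in Cy5 (adjusted p 0.0884) and 0.38 with cornea in Cy3 (adjusted p 0.127). Members that were not called included some with large gaps: celsr2 read 0.32 with cornea in Cy5 and −0.85 with cornea in Cy3, pcdh2g12 0.19 and −1.16, and pcdh15a −1.19 and −0.08. In a fit of the dye effect over all genes, the lowest adjusted p among the members was 0.211, for celsr2.

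**Figure D3:**
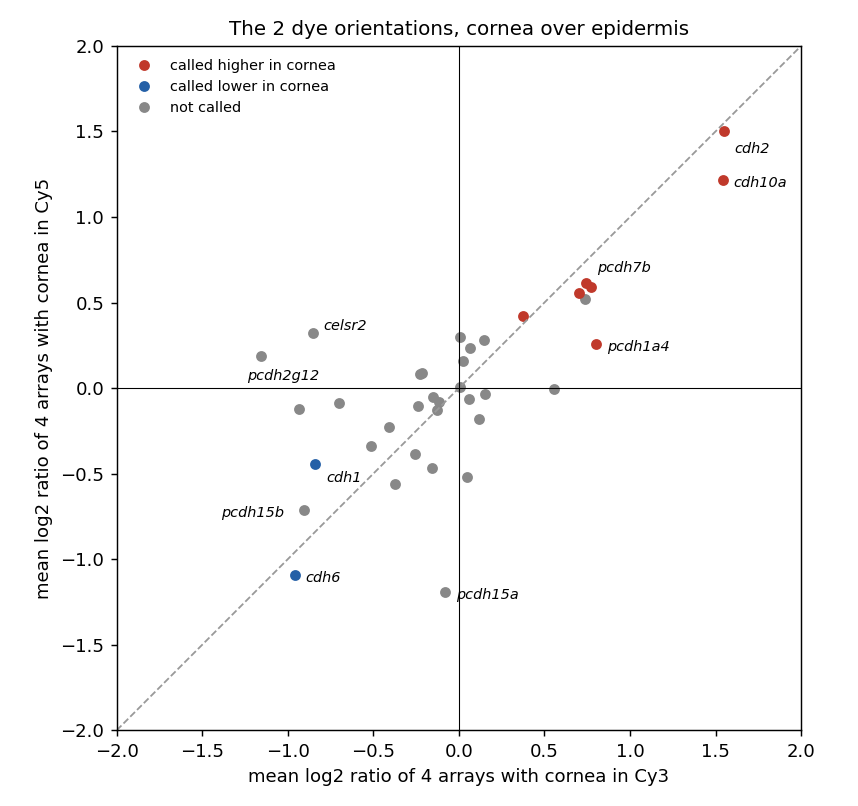
Mean log2 ratio of cornea over epidermis with cornea in Cy5 (y axis, 4 arrays) against cornea in Cy3 (x axis, 4 arrays), 1 point per gene. The dashed line marks equal values. The 9 called genes lie in the upper right and the lower left, while celsr2, pcdh2g12 and pcdh15a lie far from the line.

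Inside the cell, the partners of the classical cadherins were more often higher than lower in cornea. Of 16 measured genes for catenins and the adherens junction, 6 were called higher and 2 lower (37.5% and 12.5%, against 22.9% and 13.8% of all genes), with a median of 0.35. ctnnb1, or β-catenin, had a ratio of 2.82 ± 0.08 (SD, n = 4) and an adjusted p of 4.66e-05, jupa, or plakoglobin, 1.48 ± 0.34, and ctnna1, or α-catenin, 0.97 ± 0.22. ctnnd1, or p120 catenin, which holds cadherins at the membrane, was not called (0.27 ± 0.42), and its sign turned with cornea in Cy5 alone. Those lower were cbll1, a ubiquitin ligase for E-cadherin (−0.66 ± 0.16), and magi1b, a junction scaffold (−0.38 ± 0.08, a call lost without any single repeat, at adjusted p of up to 0.121). The ratio of cdh1 thus lay below 0 while those of its catenins ctnnb1 and ctnna1 lay above it in every repeat.

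Desmosomal cadherins and their plaque proteins had 4 of 8 genes higher and 1 lower, with a median of 0.82. These were 50% and 12.5% of the list, against 22.9% and 13.8% of all genes. The plaque protein evpla (3.04 ± 0.37) and the desmoglein dsg2.1 (2.52 ± 0.73) had the largest ratios, and pkp2, a plakophilin, was lower (−0.98 ± 0.29). Of the 4 higher genes, evpla and ppl (2.44 ± 0.52) are also in the keratinocyte list.

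Of 20 listed genes of planar cell polarity, in which Celsr proteins act, 11 were called higher and 1 lower, with a median of 0.51. These were 55% and 5% of the list, against 22.9% and 13.8% of all genes. dvl2, a Dishevelled protein, had 2.098 ± 0.42 and prickle1b 1.28 ± 0.29, while the receptor fzd3b had −1.11 ± 0.15. Of 19 genes of the Fat, Dachsous and Hippo pathway, 6 were higher and 3 lower, with a median of 0.28. Here the shares were 31.6% and 15.8%, against 22.9% and 13.8% of all genes. Those with the largest ratios were taok1a (2.42 ± 0.46) and nf2a, or merlin (0.78 ± 0.37), and on the lower side the Hippo kinase stk3 (−1.54 ± 0.26) and the factor tead1a (−0.55 ± 0.28). Calls of nf2a and tead1a were lost without single repeats, nf2a without repeat 3 or 4 at adjusted p of up to 0.0559 and tead1a without repeat 1, 2 or 3 at adjusted p of up to 0.0963. The Dachsous cadherins dchs1b (0.21 ± 0.36) and dchs2 (0.30 ± 0.13), which bind Fat proteins, were not called.

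Enzymes that shed or process cadherins had 3 of 14 genes higher and 2 lower, with a median of 0.07. These were 21.4% and 14.3% of the list, close to the 22.9% and 13.8% of all genes. Both copies of ADAM10, the protease that sheds E-cadherin and N-cadherin in mammals, were higher, adam10a at 1.63 ± 0.15 and adam10b at 1.52 ± 0.14. The 3 probes of adam10a differed in size: its ratio was 1.26 with their median and 3.29 with the probe of smallest variance alone. The proprotein convertase furinb (−1.40 ± 0.60) and psenen, a subunit of γ-secretase (−1.36 ± 0.22), were lower. Of 9 transcription factors known to repress cadherin genes, twist3 (1.43 ± 0.32) and twist2 (0.78 ± 0.49) were higher and tcf3b (−0.54 ± 0.22) was lower. These calls were 22.2% and 11.1% of the 9 genes, again close to the shares of all genes. The call of twist2 was lost without repeat 1 or 4, at adjusted p of up to 0.0983, and that of tcf3b without repeat 3 or 4, at adjusted p of up to 0.0974.

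Of 20 partners and effectors of protocadherins, 7 were higher and 2 lower, with a median of 0.21. These were 35% and 10% of the list, against 22.9% and 13.8% of all genes. Subunits of the WAVE complex, which protocadherins bind and which builds actin networks, went both ways: cyfip1 (2.19 ± 0.38) and brk1 (1.14 ± 0.14) were higher, and wasf3b (−1.19 ± 0.43) was lower. The call of brk1 was lost with its probe of smallest variance alone (0.11, adjusted p 0.575). ctcf, the chromatin protein that sets promoter choice in the protocadherin clusters of mammals, was also lower (−0.59 ± 0.32), a call that was lost without repeat 1 or 4, at adjusted p of up to 0.0893.

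**Figure D4:**
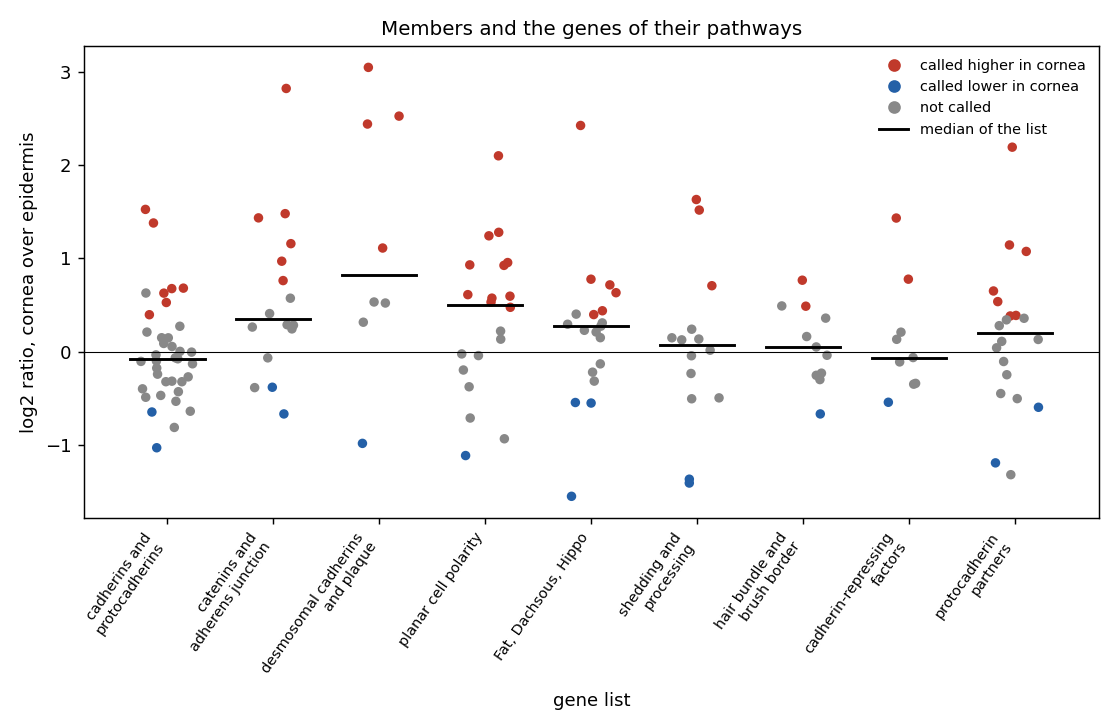
Log2 ratio of cornea over epidermis (y axis) for the 37 cadherins and protocadherins and for the listed genes of their pathways (x axis), 1 point per gene. Black lines are list medians, which lie at −0.07 for the 37, 0.35 for catenins and adherens junction, 0.82 for desmosomal genes and 0.51 for planar cell polarity.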

How the data were processed

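The deposited values are log2 ratios made by the authors, 1 per feature and array, from scanned 2-colour arrays that were background-corrected and normalised within and between arrays with limma, per the methods of the study. No source used here gives its version. The base of the logarithm is not stated with the values; 2 is the convention of limma. Spot intensities were not used here, so dim and saturated probes could not be told apart from the others, and the number of arrays limits the precision.

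Features were paired with the platform annotation through a grid of 532 by 85 places staggered by 2, found from the data, which gave 21061 probes with 1 gene symbol and left 24159 features without. Probes of a gene were averaged. The RefSeq annotation of assembly GRCz12tu, which need not be the build behind the array, had 36 of the 37 gene IDs and was used for names and neighbours only; it lists 105 genes that the symbol rule matches, of which 36 were measured (9 of 24 classical, 9 of 44 clustered).

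The dye-swapped arrays of a repeat hold the same extracts and were averaged. Means were tested against 0 with limma 3.58.1 (lmFit, eBayes, two-sided) in R 4.3.3 with Benjamini-Hochberg adjustment over all genes or all features, tested on simulated data. Eyes were collected anew for each repeat, per the methods of the study, and p-values measure the spread between the 4 repeats. Deviations of 2 arrays from their means correlated at 0.06 to 0.16 where they belonged to the same repeat and at −0.12 to 0.04 where they did not. The members and gene lists were chosen with earlier results of these data known. All called members were named, with the 2 largest differences among the others and up to 2 called genes in each direction of each list, and always ctnnb1, ctnna1 and ctnnd1; further uncalled members were named after their values had been seen. Alternatives left out each repeat or a dye orientation, used the slide or repeat as a block, or changed the probe summary, the scaling or the matching of probes. The R package data.table (1.17.8), numpy 2.4.6, pandas 2.3.3 and matplotlib 3.10.9 were also used, under Python 3.11.15.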

Additional observations from a re-analysis of the deposited data

Results flagged for a closer look

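The Hippo-linked kinase gene taok1a had 1 repeat far from the others: repeat 1 gave a log2 ratio of 1.74, whereas the other 3 lay between 2.62 and 2.71, a gap of 0.909 of the whole range. It was the only such gene among the 67 named genes tested in this way. Chance flags about 1 group in 20, and 5.88% of all genes had a repeat as far apart.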

How the results depend on the processing

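Under 15 alternatives, all 9 called members kept their sign. cdh2 and cdh10a were called under each, cdh6 under all but the fit within slide 1 (−0.84, adjusted p 0.0894), and pcdh1g18 under 5. The count called higher, 7, was 4 to 5 without single repeats, 5 with the slide as a block, 2 within slide 1, 2 within slide 2 and 2 at the stricter threshold. The count called lower, 2, was 1 to 4 without single repeats, 4 with the slide as a block, 1 within slide 1, 6 with the probe of smallest variance per gene and 0 at the stricter threshold. With feature numbers matched directly, 5 were called higher and 5 lower, of which 0 and 1 were shared. With the replicate as a block and a dye term, 7 were higher and 3 lower, pcdh15a being added at an adjusted p of 0.0478. Over all genes, the calls numbered 3315 higher and 1994 lower, 1400 and 639 within slide 1, 2190 and 1224 within slide 2, and 1944 and 1489 with direct matching. Without single repeats they numbered 2466 to 2975 higher and 1329 to 1879 lower, and with the slide as a block 3013 and 1752. The replicate block with a dye term gave 3473 and 2135, the probe of smallest variance 3401 and 2448, and the stricter threshold 960 and 315. The median of the members stayed between −0.08 and 0.02. ctnnd1 reversed to −0.23 with cornea in Cy5 alone. Of the other 26 uncalled members, 15 changed sign under at least 1 alternative and 5 were called under at least 1. The same counts were not made over all genes. The cause of these shifts was not tested.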
